A study of Mus musculus with 20 samples.

Results

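Fads2b, Slc34a2, Card14, Ncam1, Wfdc3, Rnd3, Gas1, Morn4, Aif1l and Dst are 10 of the 16411 genes in a deposited RNA sequencing table of mouse breast tumours. They were chosen by name because their levels in untreated tumours of the olaparib-resistant line OR2 stood apart from those in untreated tumours of the sensitive line MDA594. The difference between those groups is therefore given as a description, with no test. The questions asked of the other libraries were whether the same difference is found when both lines are treated with olaparib, and whether the second resistant line, OR1, shows it. All 10 genes passed the filter on low values. Fads2b did so only through the untreated OR2 libraries, at 2.39 and 2.83 log2 counts per M reads. Its highest value elsewhere was 1.39, in replicate 4 of treated OR1. The tests of Fads2b, and its place in the counts below, are therefore not separate from the choice.

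The tumours were carried as allografts, that is, mouse tumour tissue grown in other mice, so RNA of the host's cells is measured together with that of the tumour. Olaparib inhibits the DNA repair enzymes PARP1 and PARP2, which tumour cells with faulty homologous recombination depend on. The lines were MDA594, sensitive to PARP inhibitors, and its resistant counterparts MDA594OR1 and MDA594OR2. Untreated tumours are called control in the labels and vehicle in the table's header. Titles of treated tumours carry the number 100 after the drug's abbreviation, with no unit. The labels give no mutation, host strain, age or length of treatment, nor how OR1 and OR2 were derived.

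There were 4 untreated and 3 treated MDA594 libraries, 3 untreated and 4 treated OR1 libraries, and 2 untreated and 3 treated OR2 libraries, with 36.8 to 118 M reads each. The last code of a title, taken here to name the host animal, was shared by 2 libraries in 5 cases. The 2 untreated OR2 libraries share theirs, so the group that chose these genes may be 1 animal. Treated OR2 had 3 codes, treated MDA594 2 and treated OR1 3. Library names fall into 2 series, ABA445 and ABA450, whose meaning the labels do not give; replicate 1 of treated OR2, replicate 1 of treated OR1, replicates 1 and 2 of untreated MDA594 and replicates 1 and 2 of untreated OR1 are in ABA445. The epithelial genes Epcam, Krt8 and Krt18 lay between 7.56 and 10.37 log2 counts per M reads (CPM) in all 19 libraries, while the basal keratin Krt14 had 0 to 261 reads per library. The luminal epithelial markers of the labelled tissue were thus present. Of the other basal markers, Acta2 averaged 4.16 and Krt17 3.16 log2 CPM in treated OR2, against 5.10 and 2.63 in treated MDA594.

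The genes belong to unlike parts of cell biology. Secreted proteins with a WAP domain, the family of Wfdc3, are mostly small protease inhibitors of epithelia and their secretions, and the family is named after whey acidic protein of milk. Gas1 is a membrane-anchored protein that binds hedgehog ligands and helps present them to their receptor, and Card14 is a scaffold that joins BCL10 and MALT1 to activate NF-kB. Slc34a2 carries phosphate with sodium into epithelial cells, including those of the lactating mammary gland. Ncam1, Rnd3, Dst, Aif1l and Morn4 act in cell adhesion or at the cytoskeleton.

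The promoters of Wfdc3, Gas1, Rnd3 and Aif1l are shown because these genes span the range of what was found: under olaparib the share of the untreated difference was largest for Wfdc3 and Gas1, lower for Rnd3 and smallest for Aif1l. Each line gives the 250 bases before the annotated start, 5′ to 3′ on the gene's strand, from RefSeq on build GRCm38.p6. Capitals mark 3 motifs, read on both strands. The TATA box was searched as TATAAA. For the CCAAT box the letters are those of its name, and the GC box was searched as GGGCGG. Windows are chr2:164743268-164743517 on the minus strand for Wfdc3, chr13:60177536-60177785 on the minus strand for Gas1, chr2:51149112-51149361 on the minus strand for Rnd3 and chr2:31950053-31950302 on the plus strand for Aif1l.
Wfdc3: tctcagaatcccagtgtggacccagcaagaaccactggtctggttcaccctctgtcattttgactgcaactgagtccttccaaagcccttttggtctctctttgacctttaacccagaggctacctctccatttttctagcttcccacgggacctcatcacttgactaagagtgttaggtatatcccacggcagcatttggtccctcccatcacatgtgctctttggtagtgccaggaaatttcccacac
Gas1: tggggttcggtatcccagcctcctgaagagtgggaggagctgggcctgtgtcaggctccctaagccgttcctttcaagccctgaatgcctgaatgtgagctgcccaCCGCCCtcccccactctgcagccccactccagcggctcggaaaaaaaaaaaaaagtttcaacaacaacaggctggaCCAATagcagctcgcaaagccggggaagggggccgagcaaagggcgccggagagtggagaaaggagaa
Rnd3: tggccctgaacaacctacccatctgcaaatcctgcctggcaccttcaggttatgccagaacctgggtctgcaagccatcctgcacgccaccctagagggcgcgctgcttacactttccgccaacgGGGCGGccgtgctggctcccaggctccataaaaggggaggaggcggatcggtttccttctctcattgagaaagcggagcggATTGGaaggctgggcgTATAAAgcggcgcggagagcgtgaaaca
Aif1l: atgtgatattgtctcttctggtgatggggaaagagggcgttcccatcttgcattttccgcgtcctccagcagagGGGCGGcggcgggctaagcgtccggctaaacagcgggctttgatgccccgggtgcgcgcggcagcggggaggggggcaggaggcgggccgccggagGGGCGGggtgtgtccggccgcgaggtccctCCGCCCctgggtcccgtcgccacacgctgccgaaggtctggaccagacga

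The windows are unlike one another. That of Wfdc3 holds no capitals, has a GC content of 49.6% and 2 CpG sites, whereas that of Aif1l has a GC content of 69.6%, 27 CpG sites and 3 GC boxes. Rnd3 has a TATA box, a CCAAT box and a GC box, and Gas1 has a CCAAT box and a GC box. RefSeq windows were found for 8 of the 10 genes, 9 windows in all because Dst has 2. Among 32851 mouse windows of the same length, 12.4% hold the TATA box letters, 33.8% the CCAAT box and 32.7% the GC box, and the median GC content is 52.4%. The E-box CACGTG (6.02% of all windows), the STAT element TTCNNNGAA (7.02%) and the GLI motif GACCACCCA (0.225%) were in 0 of the 9 windows.

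In untreated tumours, the choosing contrast, 7 genes were higher in OR2 than in MDA594 and 3 were lower. The fitted log2 differences ran from 1.89 (SE 0.34) for Gas1 to 5.10 (SE 1.002) for Slc34a2 and 9.02 (SE 1.56) for Fads2b, with Rnd3 at 1.997, Ncam1 at 2.08, Wfdc3 at 2.81 and Card14 at 4.08. The lower genes were Dst at -1.94 (SE 0.36), Aif1l at -2.03 (SE 0.39) and Morn4 at -2.37 (SE 0.42). In that contrast 0.129% of the 16330 tested genes were called higher and 0.0857% lower. These shares describe all tested genes, and no call is given for the 10. Both untreated OR2 libraries lay above all 17 other libraries for Fads2b, Slc34a2, Ncam1, Wfdc3 and Rnd3. They lay below all 17 for Morn4, Aif1l and Dst. For Card14 and Gas1 they overlapped with other groups. The choice itself favours such a separation, and the share of all genes that show it was not computed.

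**Figure D1:**
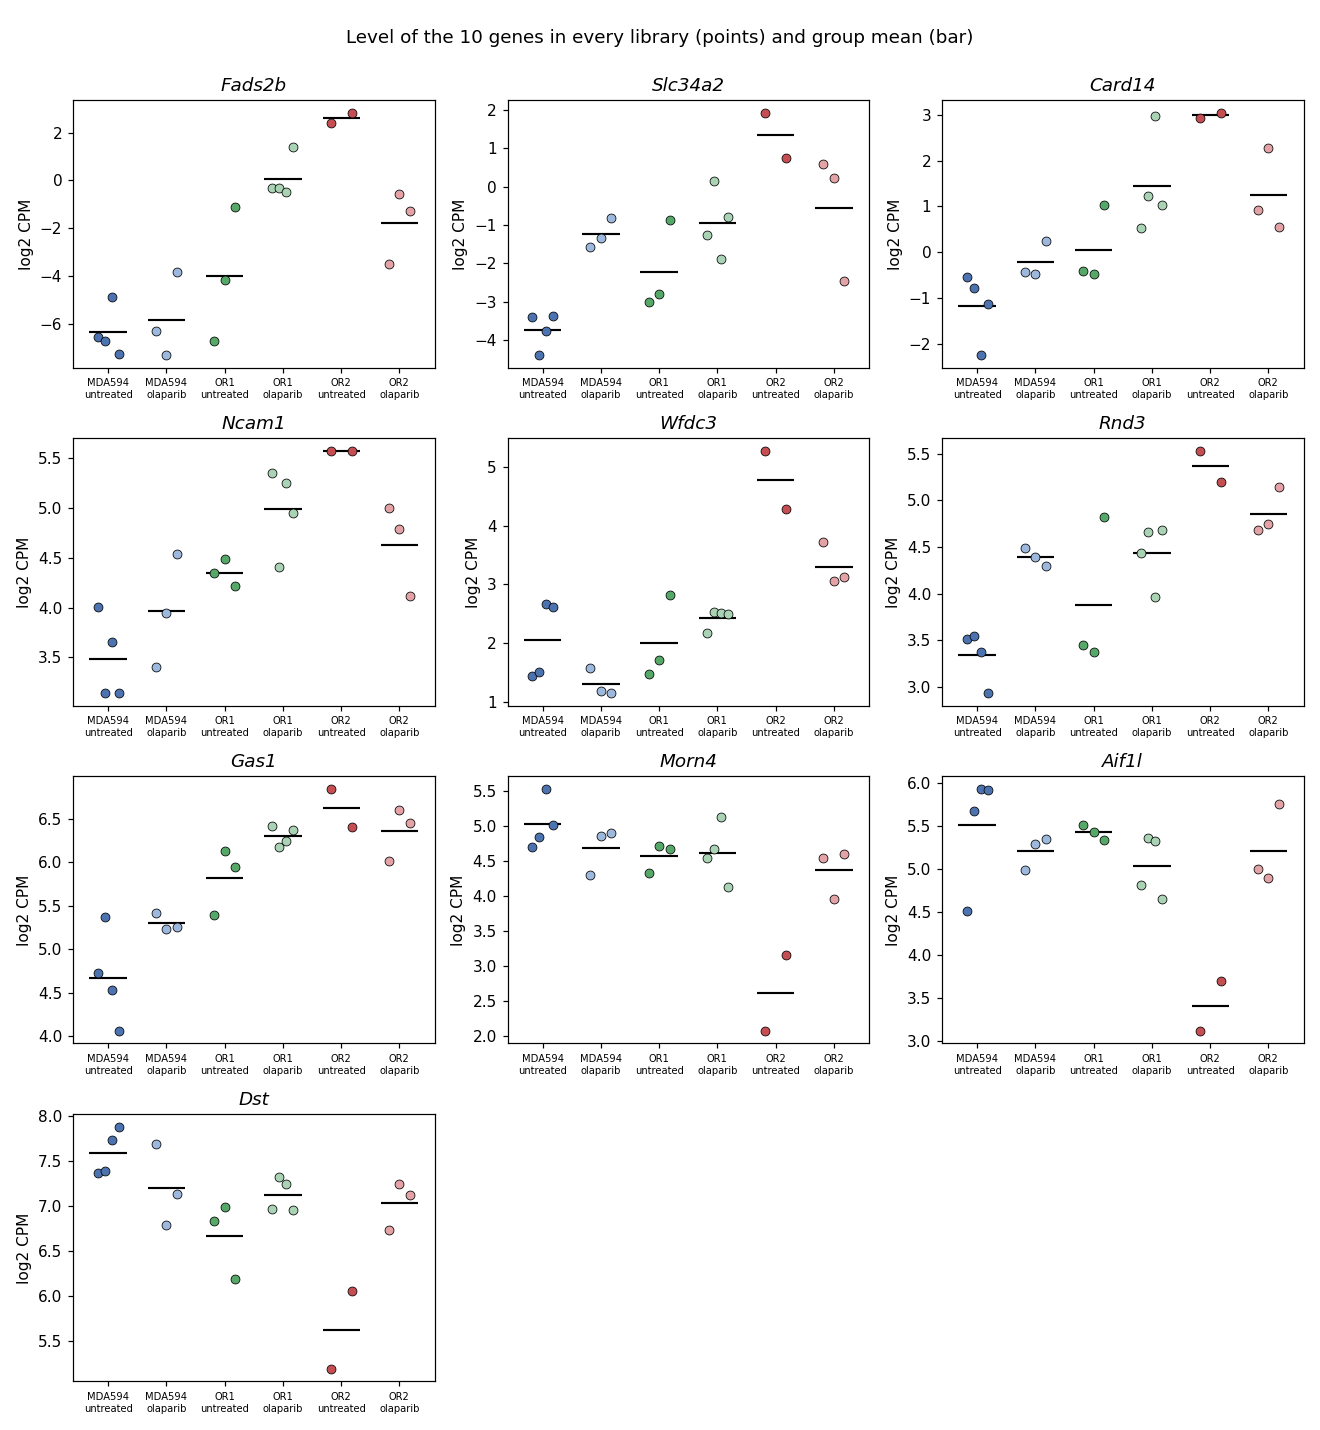
Level of each gene in log2 CPM in every library (points) with the mean of each of the 6 groups (bars); each panel has its own axis, which does not start at 0. The 2 untreated OR2 points, which took part in the choice, stand apart from all others in 8 of the 10 panels. The share of all genes that do so was not computed. The 3 treated OR2 points lie nearer to the other groups.

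With olaparib in both lines, 1 of the 10 genes differed between OR2 and MDA594 past an adjusted p of 0.05, Wfdc3, which was higher in OR2. Over all tested genes that comparison called 1.58%, 0.87% higher and 0.71% lower, by limma with Benjamini-Hochberg adjustment. At an unadjusted p under 0.05 there were 3 of the 10, Fads2b, Wfdc3 and Gas1, against 17.3% of all genes. The treated OR2 libraries lay above all treated MDA594 libraries for 5 genes, Fads2b, Card14, Wfdc3, Rnd3 and Gas1, where 12.8% of all genes did so, and below for 0, where 11.1% did. As a share of the untreated log2 difference, the treated one was 71.6% for Wfdc3, 56.2% for Gas1, 42.1% for Fads2b, 34.5% for Card14, 29.1% for Ncam1, 23.9% for Rnd3 and 12.5% for Slc34a2. It was 14.8% for Morn4, 8.33% for Dst and 0.788% for Aif1l. These shares describe genes picked for a large untreated difference, so a smaller treated one is what the choice itself favours.

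**Figure D2:**
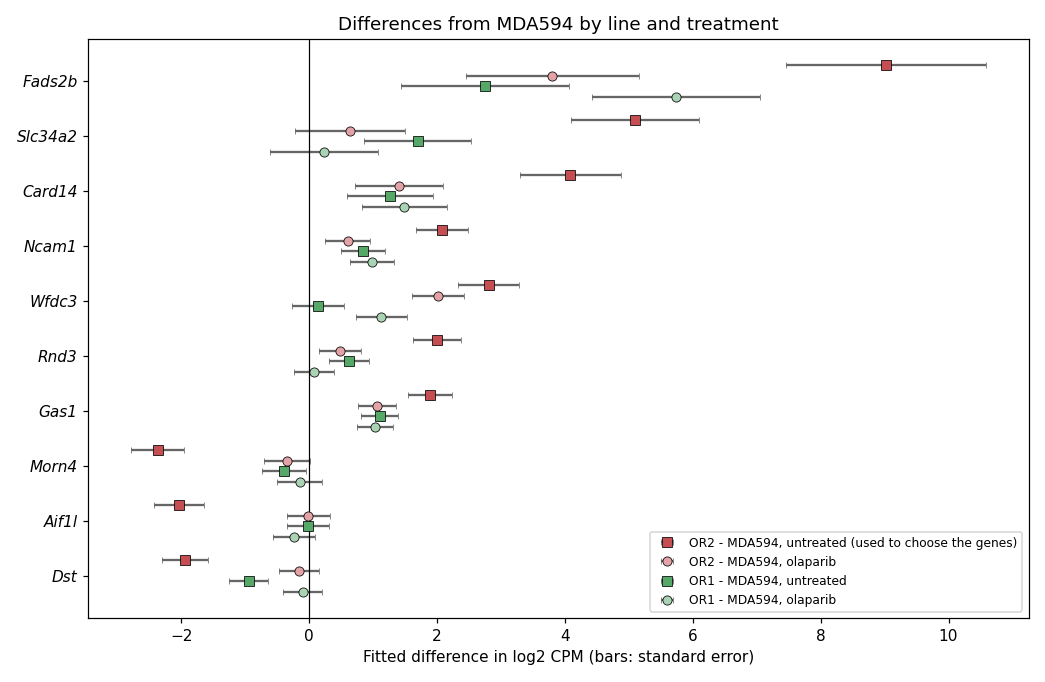
Fitted difference in log2 CPM from MDA594 at the same treatment, for OR2 (red) and OR1 (green), untreated (squares) or with olaparib (circles); bars are standard errors. The dark red squares chose the genes; with olaparib Wfdc3 is at 2.01 in OR2, while Aif1l, Dst and Morn4 lie between -0.35 and -0.02.

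Wfdc3 (ENSMUSG00000076434.10) stood at 3.72, 3.07 and 3.12 log2 CPM in the treated OR2 libraries and at 1.58, 1.19 and 1.15 in treated MDA594. The treated OR1 libraries lay between these groups, at 2.18, 2.53, 2.52 and 2.50, without overlapping either. Untreated OR2 was highest, at 5.27 and 4.28. Behind these levels are 800 to 1556 reads per treated OR2 library and 142 to 359 per treated MDA594 library.

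Treated OR2 exceeded treated MDA594 by 2.01 in Wfdc3 (SE 0.41, 95% interval 1.14 to 2.89, adjusted p = 0.0272 by limma), a 4.04-fold difference. Treated OR1 exceeded treated MDA594 by 1.13 (SE 0.40, adjusted p = 0.172), and treated OR2 exceeded treated OR1 by 0.89 (SE 0.38, adjusted p = 0.658), neither past the threshold. Within the ABA450 series the difference between treated OR2 and treated MDA594 was 1.77 (adjusted p = 0.00361). Modelling the number in the titles gave 3.46. Treated OR2 and treated MDA594 share no such number. That fit therefore compares them through untreated MDA594, which took part in the choice, and carries no test. The call was lost without replicate 2 (1.93, adjusted p = 0.0814) or replicate 3 (1.92, adjusted p = 0.197) of treated MDA594; over all alternatives the adjusted p ran from 0.00361 to 0.197. In untreated MDA594 the gene was at 1.45 and 1.51 in the ABA445 libraries and at 2.67 and 2.62 in the ABA450 libraries, which share a host code.

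**Figure D3:**
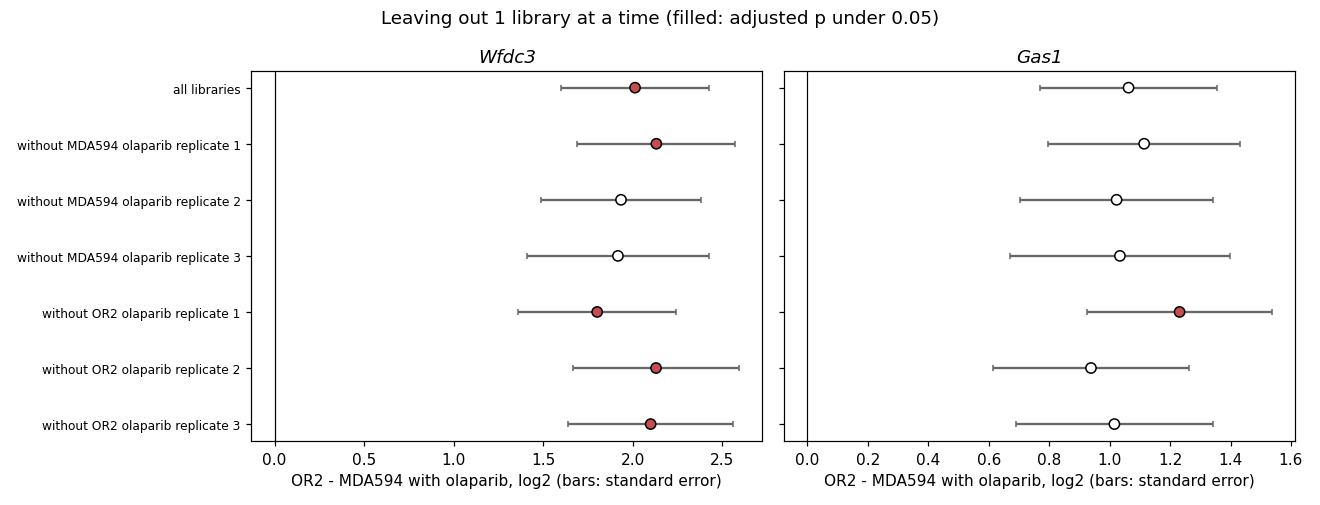
Fitted log2 difference between treated OR2 and treated MDA594 for Wfdc3 and Gas1 with all libraries and with 1 library left out at a time; bars are standard errors and filled points have an adjusted p under 0.05. Wfdc3 stays between 1.80 and 2.13 and loses its call in 2 of the 6 fits; Gas1 stays between 0.94 and 1.23 and passes in 1.

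Markers of neutrophils were higher in the OR2 groups than in the MDA594 groups at the same treatment, as Wfdc3 was. Their summed level was 57.9 to 147 CPM in treated OR2 and 26.8 to 35.3 CPM in treated MDA594, without overlap, and 6 of 6 tested markers had a positive difference (median 1.65), of which 0 were called. In untreated tumours the sum was 153 to 352 CPM in OR2 and 41.8 to 126 CPM in MDA594. In untreated OR1 it was lower than in untreated MDA594, 15.9 to 38.8 CPM with a median difference of -1.70, while Wfdc3 differed there by 0.14. In treated OR1 it was above treated MDA594, 43.7 to 88.7 CPM with a median difference of 0.75, and Wfdc3 differed there by 1.13. Luminal epithelial markers were also positive in 12 of 12 between treated OR2 and treated MDA594, with a median of 0.64. Their sums were 2792 to 5141 CPM against 2040 to 2993 CPM. Between treated OR1 and treated MDA594 they were positive in 4 of 12, with a median of -0.21. In untreated OR2 against untreated MDA594 they were positive in 7 of 12, with a median of 0.26. In untreated OR1 against untreated MDA594 it was 5 of 12, with a median of -0.17. The part of either in the Wfdc3 difference was not tested. In bulk tissue, fewer cells of a type and less RNA per cell cannot be told apart.

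The gene of the table whose log2 profile ran closest to that of Wfdc3 over the 19 libraries, after each gene's mean was removed, was Fmo2, a flavin-containing monooxygenase, at a root mean square distance of 0.42. Fmo2 stood at 4.49, 3.80 and 4.02 log2 CPM in treated OR2 and at 2.64, 2.08 and 1.66 in treated MDA594, a difference of 2.03 (adjusted p = 0.0399, limma). Because Fmo2 was picked for its likeness to Wfdc3, that test is not separate evidence. Of 24 WAP domain genes listed, 6 were in the table, all tested; 2 of them had a positive difference between treated OR2 and treated MDA594, 0 were called, and the median was -0.21 against -0.02 for all genes. The member of that list with the largest difference was Wfikkn1, a WAP protein that binds growth factors of the TGF-beta family, at -1.30 (adjusted p = 0.397).

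Gas1 (ENSMUSG00000052957.9) was at 6.02, 6.60 and 6.45 log2 CPM in treated OR2, at 6.42, 6.18, 6.24 and 6.37 in treated OR1, and at 5.41, 5.23 and 5.25 in treated MDA594. Each resistant group lay wholly above MDA594 and overlapped with the other. The difference from treated MDA594 was 1.06 for OR2 (SE 0.29, 95% interval 0.44 to 1.68, adjusted p = 0.0747 by limma) and 1.03 for OR1 (SE 0.28, 95% interval 0.42 to 1.63, adjusted p = 0.104), so neither passed. The resistant lines differed from each other by 0.04, with a 95% interval from -0.53 to 0.60. Within the ABA450 series the OR2 difference was 1.22 (adjusted p = 0.00276). Modelling the number in the titles, a fit that leans on untreated MDA594, gave -0.39, the reverse direction. In untreated OR1 the gene was at 5.40, 6.13 and 5.94, above all 4 untreated MDA594 libraries at 4.06 to 5.37, a described difference of 1.10 (SE 0.28).

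The hedgehog pathway list around Gas1 had 17 of 23 genes in the table, with 0 called in either direction and a median of 0.20 between treated OR2 and treated MDA594. In the list of receptors of the GDNF family, to which Gas1 is related, 4 of 6 genes were tested and 0 called; Gfra1, the receptor of GDNF, differed by -2.10 (SE 0.92, adjusted p = 0.249). The profile closest to Gas1 was that of Tsc22d1, a transcription regulator induced by TGF-beta, at a distance of 0.29.

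Card14 (ENSMUSG00000013483.15) varied widely within groups. It was at 0.92, 2.28 and 0.54 log2 CPM in treated OR2, at 0.52, 1.22, 2.98 and 1.04 in treated OR1, and at -0.42, -0.48 and 0.26 in treated MDA594. Both resistant groups lay above treated MDA594 and overlapped each other. The differences were 1.41 for OR2 (95% interval -0.04 to 2.85, adjusted p = 0.303) and 1.49 for OR1 (95% interval 0.08 to 2.90, adjusted p = 0.255), neither past the threshold. Modelling the number in the titles gave 0.47 for OR2 and -0.18 for OR1, and the OR2 value was 0.90 without replicate 2 of treated OR2. Replicate 3 of treated OR1, at 2.98, was within the untreated OR2 range of 2.93 to 3.05. On the other strand Card14 overlaps Sgsh, a lysosomal sulfatase, which differed by 0.15 between treated OR2 and treated MDA594; whether the counting used strand is not given in the sources used here.

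Around Card14, all 22 genes listed for CARD, BCL10 and MALT1 signalling were tested. Chuk, the IKK-alpha kinase that acts in NF-kB signalling, was the 1 gene called, and it was lower in OR2. Its levels were 6.78, 6.06 and 6.17 log2 CPM in treated OR2, 6.54, 6.57, 7.11 and 6.48 in treated OR1, and 7.58, 7.87 and 7.96 in treated MDA594. The libraries of both resistant lines lay below those of treated MDA594, with a fitted difference of -1.49 for OR2 (SE 0.27, adjusted p = 0.0128 by limma) and -1.17 for OR1 (adjusted p = 0.0524). The OR2 call was lost without replicate 3 of treated MDA594 (-1.39, adjusted p = 0.135). The OR2 difference was -0.59 when the number in the titles was modelled, a fit that leans on untreated MDA594. The nearest profile to Card14 was Dlx1, a homeobox transcription factor, at a distance of 0.72.

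Fads2b (ENSMUSG00000075217.2) is named as a relative of the fatty acid desaturase Fads2. It was nearly silent in MDA594, with 0, 0, 2 and 0 reads in the untreated libraries and 1, 0 and 4 in the treated ones. Untreated OR2 had 390 and 573 reads, and treated OR2 had 10, 63 and 39. Treated OR1 had 61, 31, 35 and 214 reads, and untreated OR1 had 0, 2 and 42. All treated libraries of both resistant lines thus held more Fads2b reads than any MDA594 library.

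On the log2 scale, which at such counts depends on the 0.5 reads added by the authors, treated OR2 was above treated MDA594 in Fads2b by 3.80 (SE 1.35, adjusted p = 0.162 by limma) and treated OR1 by 5.73 (SE 1.31, adjusted p = 0.0583), neither past the threshold. With 0.1 CPM added before the log, the OR2 difference was 1.73 (adjusted p = 0.192) and the OR1 difference 3.27 (adjusted p = 0.0332). With 1 CPM added they were 0.41 (adjusted p = 0.458) and 1.08 (adjusted p = 0.0668). Within the ABA450 series the OR2 difference in Fads2b was 5.11 (adjusted p = 0.0146). Fads2b passed the filter only through the untreated OR2 libraries, so none of its tests is separate from the choice. Treated OR2 lay below treated OR1, by -1.93 (SE 1.24, adjusted p = 0.748). Within OR1, the treated libraries all lay above the untreated ones, by 3.80 (SE 1.31, adjusted p = 0.717). The untreated OR1 library with 42 reads, replicate 3, is the only one of its group in the ABA450 series. The list of other desaturases and elongases had 23 of 25 genes tested and 0 called, with a median of -0.04; Scd4, a stearoyl-CoA desaturase, differed most, at -1.37 (SE 0.48, adjusted p = 0.154).

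Slc34a2 (ENSMUSG00000029188.15) had a wide spread in treated OR2. Treated OR2 libraries were at 0.59, 0.21 and -2.46 log2 CPM and overlapped with treated MDA594, at -1.57, -1.35 and -0.81. Untreated MDA594 was at -3.39, -4.40, -3.75 and -3.38, which is 2 to 7 reads per library, so the treated MDA594 libraries lay above the untreated ones, by 2.57 (SE 0.84, a description). The treated difference was 0.64 for OR2 (SE 0.87, 95% interval -1.19 to 2.47, adjusted p = 0.752) and 0.23 for OR1 (SE 0.84, adjusted p = 0.914). The OR2 value ran from 0.076 without replicate 1 to 1.60 without replicate 3 of treated OR2, and was 0.16 within the ABA450 series. It was 2.88 when the number in the titles was modelled, a fit that leans on untreated MDA594. Of 11 phosphate transporters listed, 8 were tested and 0 called, with a median of -0.29; Slc37a2, a phosphate-linked sugar phosphate exchanger, differed most, at -0.83 (adjusted p = 0.293).

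Ncam1 (ENSMUSG00000039542.17), the neural cell adhesion molecule, was at 4.997, 4.79 and 4.11 log2 CPM in treated OR2, at 5.35, 4.41, 5.25 and 4.95 in treated OR1, and at 3.40, 3.94 and 4.54 in treated MDA594. The resistant groups each overlapped with MDA594. Differences were 0.60 for OR2 (SE 0.35, adjusted p = 0.397) and 0.99 for OR1 (SE 0.34, adjusted p = 0.161). The OR2 value was 0.39 without replicate 1 and 0.96 without replicate 3 of treated MDA594. It was 1.58 when the number in the titles was modelled, a fit that leans on untreated MDA594. Ncam1 is also expressed by nerve and muscle cells. Skeletal muscle markers summed to 1.37 to 2.42 CPM in treated OR2 and 1.36 to 1555 CPM in treated MDA594. In untreated tumours they summed to 2.46 to 4.54 CPM in OR2 and 1.33 to 2.56 CPM in MDA594. The Schwann cell and nerve list was higher in treated OR2 than in treated MDA594 in sum, 387 to 436 CPM against 292 to 337 CPM, with a median difference of -0.13. The part of either list was not tested.

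Rnd3 (ENSMUSG00000017144.9), a small GTPase that acts on the actin cytoskeleton, was at 4.69, 4.74 and 5.15 log2 CPM in treated OR2 and at 4.49, 4.39 and 4.30 in treated MDA594. The groups did not overlap, but the difference was 0.48 (SE 0.33, 95% interval -0.22 to 1.17, adjusted p = 0.482). Treated OR1 was at 4.44, 4.66, 3.97 and 4.68, a difference from MDA594 of 0.07 (adjusted p = 0.928). Untreated MDA594 was lower than treated MDA594, at 2.93 to 3.54.

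For the 3 genes that were low in untreated OR2, treated OR2 and treated MDA594 libraries overlapped. Aif1l (ENSMUSG00000001864.14), an EF-hand protein that bundles actin, was at 3.11 and 3.69 log2 CPM in untreated OR2 and at 4.99, 4.89 and 5.75 in treated OR2, against 4.99, 5.29 and 5.35 in treated MDA594. The treated difference was -0.02, with a 95% interval from -0.73 to 0.70 (adjusted p = 0.985, limma).

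Morn4 (ENSMUSG00000049670.10), a MORN repeat protein that binds myosin III, was at 2.06 and 3.15 log2 CPM in untreated OR2, at 4.54, 3.96 and 4.59 in treated OR2 and at 4.30, 4.86 and 4.91 in treated MDA594. Its treated difference was -0.35, with a 95% interval from -1.11 to 0.41 (adjusted p = 0.660, limma). It was -0.15 without replicate 2 of treated OR2, -0.22 without replicate 3 of treated MDA594, and 0.39 when the number in the titles was modelled. Dst (ENSMUSG00000026131.22), the plakin dystonin, which links intermediate filaments, actin and microtubules, was at 5.18 and 6.05 in untreated OR2, at 6.74, 7.25 and 7.12 in treated OR2 and at 7.69, 6.79 and 7.14 in treated MDA594. Its treated difference was -0.16, with a 95% interval from -0.83 to 0.50 (adjusted p = 0.840, limma). Treated OR1 also overlapped with treated MDA594 for each.

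The lists around these genes held 0 calls between treated OR2 and treated MDA594. In the MORN repeat list 10 genes were tested and the largest difference was in Espnl, an espin-like actin protein, at 2.30 (SE 0.68, adjusted p = 0.0935). Among 12 genes of the AIF1 family and actin bundling it was Actn2, the muscle alpha-actinin, at -4.15 (adjusted p = 0.324), and 1 treated MDA594 library is the one with muscle markers at 1555 CPM; its part was not tested. Among 6 plakins it was Evpl, envoplakin, at 0.82 (adjusted p = 0.0935), and among 9 tested genes of hemidesmosomes and basement membrane anchorage it was Lamb3, a laminin-332 chain, at -1.71 (adjusted p = 0.0930). Gfra1 was also the gene with the largest difference in the list of neural cell adhesion and polysialylation, where 14 were tested and 0 called. Over all 12 lists, 157 genes were tested, 0 were higher and 1 was lower, with a median of 0.03 against -0.02 for all genes.

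The second resistant line was compared in the same way. Treated OR1 against treated MDA594 gave 0 calls among the 10 genes, where 0.545% of all genes were called, 0.318% higher and 0.227% lower. At an unadjusted p under 0.05 there were 5, Fads2b, Card14, Ncam1, Wfdc3 and Gas1, against 18% of all genes. The treated OR1 libraries lay above all treated MDA594 libraries for 4, Fads2b, Card14, Wfdc3 and Gas1, where 16.2% of all genes did, and below for 0, where 15.9% did. In untreated OR1, described without a test because untreated MDA594 took part in the choice, the difference from MDA594 was 2.75 for Fads2b, 1.69 for Slc34a2, 1.26 for Card14, 0.84 for Ncam1, 0.62 for Rnd3, 0.14 for Wfdc3, -0.02 for Aif1l, -0.39 for Morn4 and -0.94 for Dst. Untreated OR1 replicate 3, the only library of its group in ABA450 and with its own host code, was above replicates 1 and 2 for Fads2b, Slc34a2, Card14, Wfdc3 and Rnd3.

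Treated OR2 against treated OR1 gave 0 calls among the 10, where 0.0857% of all genes were called, 0.0122% higher and 0.0735% lower, and 1 gene, Wfdc3, had an unadjusted p under 0.05, against 7.37% of all genes. OR2 libraries were above all OR1 libraries for Wfdc3 and Rnd3, where 2.95% of all genes were, and below for Fads2b, where 3.35% were. Treated against untreated OR1 gave 0 calls among the 10 and 0% of all genes (smallest adjusted p 0.705), with 5.87% of all genes at an unadjusted p under 0.05 and 1 of the 10, Fads2b. Gas1 and Fads2b lay higher in every treated than in any untreated OR1 library, where 7.43% of all genes did, and 0 of the 10 lay lower, where 7.81% did.

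The responses of OR2 itself, which share the untreated libraries that chose the genes, are given as values only. Between untreated and treated OR2 the fitted difference was -4.40 for Fads2b, -1.89 for Slc34a2, -1.74 for Card14, -1.48 for Wfdc3, -0.94 for Ncam1, -0.51 for Rnd3 and -0.27 for Gas1. It was 1.81 for Aif1l, 1.76 for Morn4 and 1.42 for Dst.

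Neighbouring genes were looked up by order only, in GENCODE M21. Of 20 tested neighbours of the 10 genes, 2 were called between treated OR2 and treated MDA594, where 1.58% of all genes were called. Dnttip1, a component of a mitotic deacetylase complex next to Wfdc3, was higher by 0.76 (SE 0.18, adjusted p = 0.0486 by limma), at 5.36, 5.05 and 5.60 log2 CPM in treated OR2 and 4.64, 4.54 and 4.56 in treated MDA594. Pi4k2a, a phosphatidylinositol kinase next to Morn4, was lower by 0.91 (SE 0.16, adjusted p = 0.0101), at 6.10, 5.89 and 6.13 against 6.86, 7.05 and 6.95. Treated OR1 lay at 5.93 to 6.29 in Pi4k2a, below treated MDA594, and at 4.68 to 5.03 in Dnttip1, above it. Wfdc2, a WAP protein on the other side of Wfdc3, was at 6.10, 5.25 and 5.67 in treated OR2 and at 4.97, 4.81 and 4.62 in treated MDA594, a difference of 0.89 (adjusted p = 0.360).

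In untreated tumours some neighbours had differences of the same sign as the chosen gene. Sel1l3, next to Slc34a2, had 279 and 258 reads in untreated OR2 and 7, 8, 2 and 2 in untreated MDA594. Wfdc2 differed there by 2.42, and Bend6, next to Dst, by -2.06. These values share the libraries of the choice and carry no test.

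**Figure D4:**
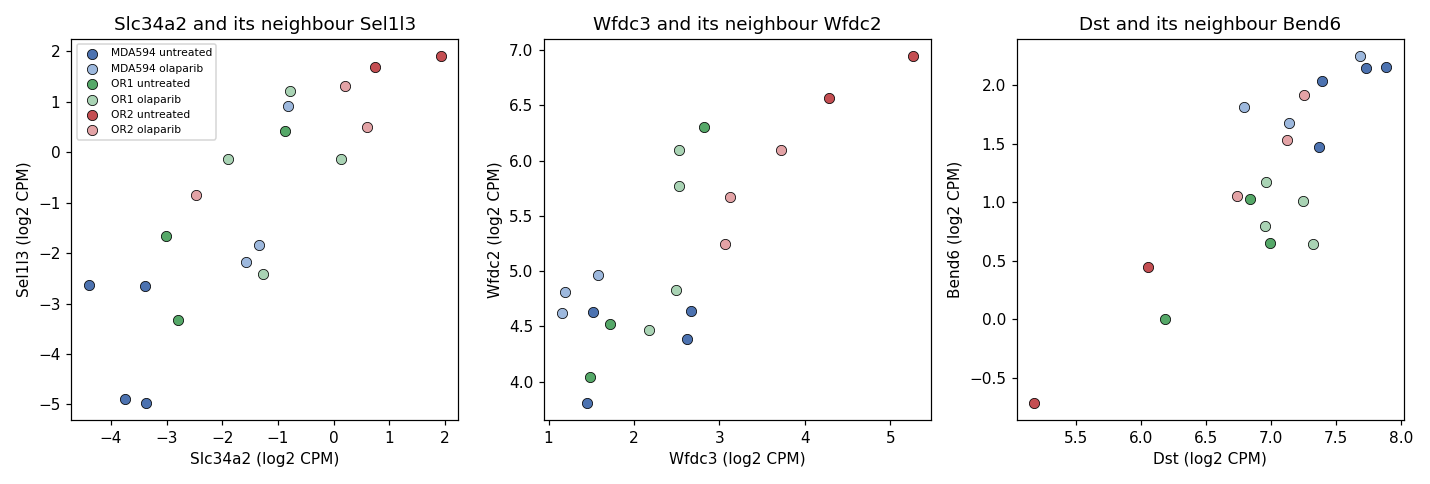
Level of Slc34a2, Wfdc3 and Dst (horizontal, log2 CPM) against that of a neighbouring gene, Sel1l3, Wfdc2 and Bend6 (vertical, log2 CPM), in 19 libraries coloured by group; axes do not start at 0. Untreated OR2 libraries lie at the upper right for Slc34a2 and Wfdc3 and at the lower left for Dst.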

How the data were processed

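Bulk poly(A) RNA was measured in 20 libraries. Extraction used an RNeasy kit and library making a stranded KAPA kit, per the labels' protocols. Build GRCm39 and the tools limma, STAR 2.7.10a and RSEM 1.3.1 are listed in the submitters' processing notes. The deposited values are log2 CPM made by the authors; their antilogs gave whole reads for 100% of values at a tolerance of 0.01 reads. Title and treatment label disagree for 1 library, which was left out, and 19 were used.

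Genes above 0 log2 CPM in at least 2 libraries were kept, which removed 81 and left 16330. Values were fitted with limma 3.58.1 in R 4.3.3, with 1 mean per group, a mean trend, a correlation between libraries of a host code (0.404) and 13 residual degrees of freedom. Tests were two-sided, with Benjamini-Hochberg adjustment over all tested genes and a threshold of 0.05. Intervals are 95% and unadjusted. The labels do not say that libraries came from separate animals, so p-values cover only the spread among the libraries at hand, which may be technical. The method was tested on simulated data.

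The 10 genes, 12 lists of related genes, 14 marker lists and the tests were chosen with earlier results of these data known. Contrasts of untreated OR2 or untreated MDA594 with another group carry no test. All groups share an estimate of each gene's spread, however. The tests between treated groups thus also draw on the spread within the untreated libraries that chose the genes. They are not wholly separate from the choice. The fit with the title number compares treated groups through untreated MDA594. Its values are therefore given without a test, though the counts over alternatives include it. Named were all 10 genes, per list each gene past the threshold or else the one with the largest difference, the nearest profile of each gene, and neighbouring genes; Sel1l3, Wfdc2 and Bend6 were singled out after their values were seen. Some genes of these lists are not reported here. Alternatives changed the filter, added constant, normalization, voom in place of the trend, host codes, groups in the fit, library-name series, title number and each library.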

Additional observations from a re-analysis of the deposited data

Results flagged for a closer look

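Untreated MDA594 and treated OR1, the groups with 4 libraries, were checked gene by gene for 1 library standing far from the rest. Over the 10 genes this made 20 checks on the same libraries. Of these, 2 were flagged, where chance alone flags about 1 in 20. Groups with fewer libraries, those of OR2 among them, were not checked. Replicate 4 of treated OR1 was high in Fads2b, at 1.39 log2 CPM, and replicate 1 of treated OR1 was low in Wfdc3, at 2.18. The first of these has 214 Fads2b reads, and the second is the only treated OR1 library of the ABA445 series.

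Fads2b, Slc34a2, Card14 and Rnd3 were picked out because their treated libraries lay above the untreated ones in another line and below them in OR2. Fads2b differed between treated and untreated tumours by 3.80 in OR1 and by -4.40 in OR2. Slc34a2 differed by 2.57 in MDA594 and by -1.89 in OR2. Card14 differed by 0.93 in MDA594 and by -1.74 in OR2, and Rnd3 by 1.01 in MDA594 and by -0.51 in OR2. These genes were chosen for being high in untreated OR2 against untreated MDA594, which itself favours a fall in OR2 and a rise in MDA594. The share of all genes with this pattern was not computed, and the difference between the lines was not tested.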

How the results depend on the processing

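Of 746 values of the 10 genes under alternatives, 669 kept direction and side of the threshold, 2 Wfdc3 values fell short of it, 21 newly passed and 54 turned sign, 0 of the last past the threshold in either fit (smallest adjusted p 0.314). No paired analysis was possible by replicate number because those numbers follow accession order. The number in the titles, which some treated and untreated tumours share, was modelled instead (title number, below). Treated MDA594, treated OR1 and treated OR2 share no title number with each other. That fit therefore reaches the differences between them through untreated MDA594, which took part in the choice. For OR2 against MDA594 and against OR1, no host code correlation could be estimated when the other groups were left out of the fit, so it was left out there. Where an alternative changed a result, the cause was not tested.

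Between treated OR2 and treated MDA594 the count of the 10 called, 1, was 2 with quantile normalization, 2 without the host code correlation and 3 in the ABA450 series only; leaving out 1 library gave 0 to 2. Between treated OR1 and treated MDA594 it was 0, and became 1 with log2(CPM + 0.1), 1 with quantile normalization, 3 without the host code correlation, 5 with only the groups compared, 1 when the library-name series was modelled and 5 in the ABA450 series only. In treated OR2 against treated OR1, and in treated against untreated OR1, it was 0 under every alternative run, by voom too. Calls over all genes ran from 19 to 1954 (258 as reported) for treated OR2 against MDA594, from 0 to 4809 (89) for OR1 against MDA594, from 7 to 808 (14) for OR2 against OR1 and from 0 to 148 (0) for treated against untreated OR1.

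Signs turned as follows. Between treated OR2 and treated MDA594, Aif1l was 0.0021 with quantile normalization, 0.00084 without the host code correlation and with only the groups compared, 0.11 with the library-name series, 0.12 in ABA450 only and 0.11 with the title number; with the title number Rnd3 was -0.14, Gas1 -0.39 and Morn4 0.39. Between treated OR1 and treated MDA594, Slc34a2 was -0.14 with quantile normalization; Rnd3 was -0.0016 and Morn4 0.021 with only the groups compared; Morn4 was 0.027 in ABA450 only; and with the title number Card14 was -0.18, Rnd3 -0.37, Morn4 0.53, Aif1l 1.08 and Dst 0.17. Between treated OR2 and treated OR1, with quantile normalization Card14 was 0.098 and Gas1 -0.0068; Card14 was 0.026 with host codes averaged; Slc34a2 was -0.27 in ABA450 only; and with the title number Card14 was 0.65, Ncam1 0.52, Gas1 -1.05 and Aif1l -0.97. Between treated and untreated OR1, Morn4 was 0.041 without the host code correlation, 0.076 with only the groups compared, 0.01994 in ABA450 only and 0.092 with the title number; in ABA450 only Wfdc3 was -0.30 and Rnd3 -0.42.

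Leaving out 1 library at a time gave, for treated OR2 against MDA594, -0.28 to 0.15 for Aif1l and -0.38 to 0.072 for Dst. For treated OR1 against MDA594 it gave -0.13 to 0.54 for Slc34a2, -0.018 to 0.21 for Rnd3, -0.32 to 0.029 for Morn4 and -0.32 to 0.13 for Dst. For treated OR2 against OR1 it gave -0.17 to 1.36 for Slc34a2, -0.60 to 0.32 for Card14, -0.086 to 0.21 for Gas1, -0.047 to 0.39 for Aif1l and -0.17 to 0.086 for Dst. For Morn4 in treated against untreated OR1 it gave -0.14 to 0.16. Fads2b and Slc34a2 rest on few reads in MDA594, so depth limits the size of their differences.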

Other observations

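Among the nearest profiles over 19 libraries, Gm30948 lay closest to Fads2b at a root mean square distance of 1.98, Pde1a, a cyclic nucleotide phosphodiesterase, to Slc34a2 at 1.05 and Sned1, an extracellular matrix protein, to Ncam1 at 0.43. Lurap1l lay closest to Rnd3 at 0.34, Gm5914 to Morn4 at 0.41, Dusp22, a phosphatase, to Aif1l at 0.40 and St3gal5, a sialyltransferase that makes the ganglioside GM3, to Dst at 0.31. Both untreated OR2 libraries held the Fads2b neighbour in profile, Gm30948, at 1.08 and 3.19 log2 CPM, and the 7 MDA594 libraries held it at -7.28 to -4.24.

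Other marker lists were compared between treated OR2 and treated MDA594, with 0 genes called in any. Median differences were -0.45 for fibroblasts, -0.75 for endothelium, -0.80 for macrophages, -1.95 for T cells, -2.35 for natural killer cells, -4.62 for skeletal muscle and -0.21 for basal epithelium. The muscle sums overlapped, at 1.37 to 2.42 CPM in treated OR2 and 1.36 to 1555 CPM in treated MDA594. Of the lists with few genes in the table, the medians were 0.36 for 3 neuroendocrine genes, -2.06 for 2 adipocyte genes, 0.55 for 2 skin genes and -0.44 for 3 genes of alveolar type 2 cells. Between untreated OR2 and untreated MDA594, given as a description, medians were 0.67 for fibroblasts, 0.03 for endothelium and -0.02 for macrophages. They were -2.02 for T cells, -1.38 for natural killer cells, 1.18 for skeletal muscle and 0.22 for basal epithelium. The part of these lists in the differences of the 10 genes was not tested. The basal keratin Krt14 had 261 reads in replicate 3 of untreated OR1 and 0 and 1 in replicates 1 and 2.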
